A study of Mus musculus with 6 samples.

Results

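The NLRP3 inflammasome and the interleukin-1 system were followed here through 10 genes in cultured mouse myeloid progenitors. The 10 genes, chosen by name, were Nlrp3, Nlrc4, Nek7, Pycard, Casp1, Casp4, Gsdmd, Il1b, Il18 and Il1rn, out of 23337 genes in the deposited count table, and all 10 were found there. They were put together with earlier results of these libraries in view, among them the Nlrp3 counts of drug-treated and vehicle cultures, so their values are given as a description, without tests, and support nothing beyond themselves. The cells were granulocyte-monocyte progenitors from C57BL6 bone marrow carrying ER-HOXA9, a fusion of the estrogen receptor with the homeobox factor HOXA9 that keeps such progenitors immature and dividing while estradiol is supplied. All 3 groups shared the fusion and a serum medium with glutamine, stem cell factor and 0.5 µM beta-estradiol, and each had 2 biological replicates. The groups were untreated cells at day 0, cells after 3 days in DMSO (vehicle), and cells after 3 days in 200 nM GSK-LSD1, 5 µM mercaptopurine and 5 µM cerulenin together, so no drug can be read on its own. GSK-LSD1 blocks LSD1, which removes methyl groups from histones, mercaptopurine is a purine analogue that disturbs nucleotide synthesis, and cerulenin blocks fatty acid synthase. Whether the cultures came from 1 clone or from separate animals is not given, and the spread between replicates may therefore be partly technical.

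An inflammasome is a protein complex that forms in the cytosol of myeloid cells when a sensor such as NLRP3 or NLRC4 meets a danger signal. The sensor recruits the adaptor ASC, encoded by Pycard, which gathers and activates caspase-1. Caspase-1 cuts the precursors of interleukin-1 beta and interleukin-18 into their active forms and opens the pore-forming end of gasdermin D, and the pores release the cytokines and can kill the cell by pyroptosis. Supply of the sensor and of the interleukin-1 beta precursor is usually kept low until a priming signal, often through Toll-like receptors and NF-kB, raises their transcripts. RNA abundance, the only quantity measured here, does not show whether a complex formed.

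Start regions are printed for Nlrp3, the member with the largest difference between groups, for Casp4, whose start region held the most matches to the NF-kB motif, and for Il1b, whose transcript stayed near 0. They come from RefSeq (GRCm38.p6, the assembly that mm10 names), which had an entry for 9 of the 10 members, and each gives the 250 bases before an annotated start, 5′ to 3′ on the gene's strand. Capitals mark matches to the NF-kB motif (GGG, any 5 bases, CC) on either strand or to the TATA box TATAAA. The 2 Nlrp3 regions lie at chr11:59542436-59542685 and chr11:59541319-59541568 on the plus strand, the first ending at the base before the deposited gene model begins. The Casp4 region is chr9:5308610-5308859 (plus strand) and the Il1b region is chr2:129371140-129371389 (minus strand).
Nlrp3, start at the deposited gene model: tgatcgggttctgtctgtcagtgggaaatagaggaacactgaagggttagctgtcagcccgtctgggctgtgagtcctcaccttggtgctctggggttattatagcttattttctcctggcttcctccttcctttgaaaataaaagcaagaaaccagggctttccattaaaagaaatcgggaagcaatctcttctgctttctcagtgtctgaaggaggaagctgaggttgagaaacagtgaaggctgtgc
Nlrp3, upstream start: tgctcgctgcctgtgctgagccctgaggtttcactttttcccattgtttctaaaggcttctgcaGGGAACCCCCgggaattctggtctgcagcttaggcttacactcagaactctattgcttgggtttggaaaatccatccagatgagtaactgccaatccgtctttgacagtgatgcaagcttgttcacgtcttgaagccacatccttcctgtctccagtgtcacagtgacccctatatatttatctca
Casp4: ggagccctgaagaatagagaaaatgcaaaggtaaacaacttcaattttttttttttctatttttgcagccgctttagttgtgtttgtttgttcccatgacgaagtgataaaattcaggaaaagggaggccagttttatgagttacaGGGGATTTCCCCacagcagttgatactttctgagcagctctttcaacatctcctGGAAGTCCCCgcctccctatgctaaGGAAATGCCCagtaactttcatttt
Il1b: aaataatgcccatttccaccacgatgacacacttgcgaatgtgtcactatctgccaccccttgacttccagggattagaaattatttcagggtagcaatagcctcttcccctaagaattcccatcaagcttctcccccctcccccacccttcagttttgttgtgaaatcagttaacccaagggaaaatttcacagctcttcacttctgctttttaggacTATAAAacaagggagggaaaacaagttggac
The NF-kB letters were found in the start regions of 5 of the 9 members (Nlrp3, Nek7, Casp1, Casp4 and Il1rn) and in 45.8% of all 32851 start regions of the same length, so a match is common. In Casp4 the matches overlapped from 104 bases before the start and recurred at 50 and 25 bases before it. In Nlrp3 the match lay 186 bases before the upstream start, and the region at the deposited start held none. The TATA box was found in Il1b, 31 bases before the start, in Il18 on the other strand, and in 12.4% of all regions. An ETS motif of PU.1 (GAGGAAGT, 2.44% of all regions) was found in Pycard, a C/EBP motif (TTGCNNAA, 9.56%) in Pycard and Nlrc4, and an IRF motif (GAAA, any 2 bases, GAAA, 2.98%) and a GFI1 motif (AATCACNGC, 0.776%) in none of the 9. These matches describe letters in the windows and are not evidence of binding.

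The libraries held 11305666 to 16948697 counts. Rn45s, the ribosomal RNA precursor, took 20.45% to 24.64% of them at day 0 and 14.62% to 16.12% at day 3. Levels are given as CPM, counts per 1000000 counts of a library after TMM scaling of the library totals. Of the 10 markers listed for granulocyte-monocyte progenitors, among them Mpo, Kit and Cd34, all 10 passed the filter on low counts in these cells. Their summed level was 8669 to 8989 CPM at day 0, 9682 to 9982 CPM with vehicle and 11760 to 12340 CPM with the drugs. Mpo had the largest means (3761, 4647 and 6735 CPM). From vehicle to drugs Kit went from 988.2 to 1244 CPM, Ctsg from 955.3 to 738.3 CPM and Cebpa from 177.3 to 137 CPM. By the edgeR test used below, 3 of the 10 were called higher with the drugs than with vehicle and 2 lower. The summed level of the 10 markers of monocytes and macrophages was 831.4 to 867.5 CPM at day 0, 530.7 to 573.3 CPM with vehicle and 931.5 to 998.3 CPM with the drugs, with C1qa and C1qc at 0 in all 6 libraries. Most of that sum was Ccr2 (mean 522.8 CPM with vehicle and 797.9 CPM with the drugs), and other monocyte markers differed more, Ctss from 0.125 to 37.3 CPM, Csf1r from 1.75 to 15.8 CPM, Ly6c2 from 4.89 to 36.8 CPM and Emr1 from 19.1 to 67.2 CPM. The summed neutrophil markers (9 of 10 in the table) went from 12.02 to 15.72 CPM with vehicle to 3492 to 3808 CPM with the drugs, nearly all of it Mmp8, while Camp and Retnlg were at 0 throughout. Summed mast cell and basophil markers were 981.3 to 1166 CPM at day 0, 553.2 to 568.3 CPM with vehicle and 1289 to 1381 CPM with the drugs. Most of that was Cpa3 (means 964.2, 460.5 and 1147 CPM). From vehicle to drugs Hdc went from 10.7 to 77.1 CPM and Gata2 from 62.05 to 88.4 CPM. Mcpt8 went from 25.6 to 20.8 CPM and Ms4a2 from 1.79 to 1.07 CPM, while Prss34 was near 0 and Fcer1a at 0. Summed dendritic markers were 218 to 219.2 CPM, 287 to 287.1 CPM and 521.9 to 539.2 CPM, nearly all of it Flt3, which progenitors also express, with Itgax at 3.97 CPM with vehicle and 3.01 CPM with the drugs and Cd209a and Batf3 at 0. Summed lymphoid markers stayed at or below 23.55 CPM and erythroid and megakaryocyte markers at or below 42.18 CPM. These marker changes accompany every drug comparison below, and their part in the member values was not tested. In bulk RNA, fewer cells of a type and less RNA per cell cannot be told apart.

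Drug-treated cultures had far more Nlrp3 transcript than vehicle cultures, and slightly more of the adaptor, caspase and gasdermin transcripts. The interleukin-1 beta and interleukin-18 transcripts were near 0 in vehicle cultures and low in drug-treated ones. Libraries of the 2 groups did not overlap for any of the 10 members, 9 being higher with the drugs and 1, Il1rn, lower. Over all 11283 genes that passed the filter, 35.1% were higher without overlap and 33.7% lower, and the members were chosen with this contrast known, so nothing is read from the count. By the edgeR quasi-likelihood F test at an adjusted p under 0.05, 31.9% of those genes were called, a rule not applied to the members. Of the 10 members, 8 passed the filter and Il1b and Il1rn did not. Il18 passed only through its counts in drug-treated cells.

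**Figure D1:**
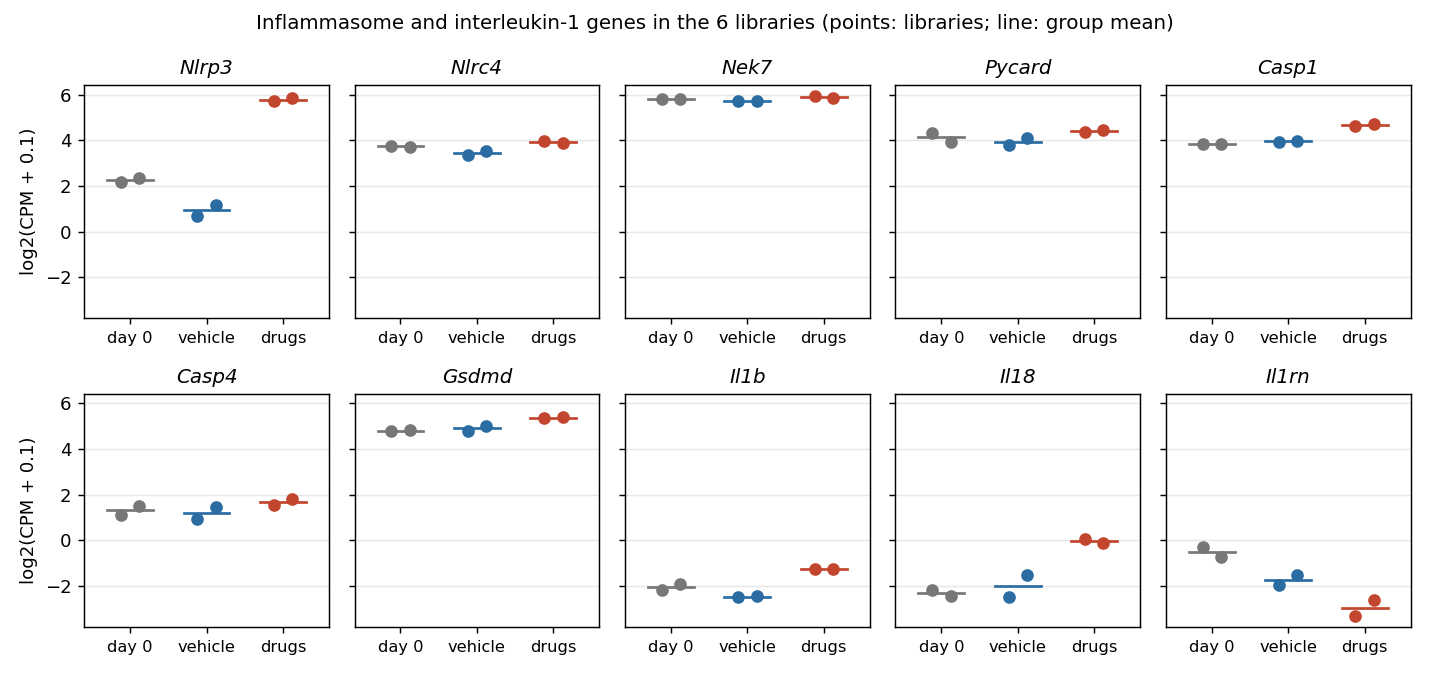
Level of each of the 10 genes in each of the 6 libraries as log2(CPM + 0.1), with 1 point per library and a line at the mean of the 2 libraries of each group. Nlrp3 moves from 1.502 and 2.174 CPM with vehicle to 52.55 and 57.05 CPM with the drugs, while Il1b stays at or below 0.323 CPM in all 6 libraries.

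Nlrp3 (chromosome 11, 59542686 to 59566956, plus strand, 10 exons in the deposited model) encodes the sensor that answers potassium loss and membrane damage. It had 4.37 and 4.99 CPM at day 0, 1.502 and 2.174 CPM with vehicle, and 52.55 and 57.05 CPM with the drugs. All 3 groups stood apart, vehicle lowest and drugs highest. The fitted log2 difference was 4.90 ± 0.157 (SE, n = 2 per group) between drugs and vehicle, a 29.8-fold difference, and 3.56 ± 0.129 between drugs and day 0, 11.8-fold. Only 35 of the 11283 tested genes had a larger log2 difference upward between drugs and vehicle. Vehicle cultures were 2.53-fold below day 0 in Nlrp3, a log2 difference of -1.34 ± 0.226. The 2 drug comparisons share the drug libraries, so they are not independent.

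Nlrc4 and Nek7 differed far less. Nlrc4 (chromosome 17, 74426295 to 74459108, minus strand), the sensor that responds to bacterial flagellin and secretion rods through NAIP proteins, had 13.46 and 12.88 CPM at day 0, 10.12 and 11.54 CPM with vehicle and 15.7 and 14.65 CPM with the drugs. Its log2 difference was 0.48 ± 0.126 between drugs and vehicle and 0.20 ± 0.12 between drugs and day 0. Nek7 (chromosome 1, 138484714 to 138619696, minus strand) encodes a mitotic kinase that also binds NLRP3 and is needed for its assembly. It had 56.12 and 55.43 CPM at day 0, 52.01 and 52.51 CPM with vehicle and 62.16 and 58.02 CPM with the drugs, a log2 difference of 0.20 ± 0.0744 between drugs and vehicle. That is 1.15-fold, the smallest difference among the 8 members that passed the filter. GENCODE M21 annotates Gm28501 antisense to Nek7, over 532 of its exon bases, and the sources used here do not give whether counting kept strands apart.

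The adaptor and the inflammatory caspases had moderately more transcript with the drugs. Pycard (chromosome 7, 127991373 to 127993867, minus strand) had 20.04 and 15.21 CPM at day 0, 13.91 and 16.81 CPM with vehicle and 20.59 and 21.75 CPM with the drugs. The lower drug library was just above the higher day 0 library, and vehicle and day 0 overlapped. The log2 difference between drugs and vehicle was 0.47 ± 0.142. Of the exon bases of Pycard, 485 lie under Gm45205, annotated on the opposite strand.

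Casp1, which encodes the protease at the centre of the complex (chromosome 9, 5298517 to 5307281, plus strand), had 14.06 and 14.21 CPM at day 0, 15.26 and 15.47 CPM with vehicle and 24.83 and 25.94 CPM with the drugs. Replicates were close, and the drug libraries stood apart from the other 4. The log2 difference was 0.73 ± 0.103 from vehicle (1.65-fold) and 0.85 ± 0.103 from day 0. Casp4 encodes caspase-11 of the mouse, which binds cytosolic lipopolysaccharide and cuts gasdermin D without an inflammasome sensor. It lies 1578 bases beyond Casp1 on the same strand (5308860 to 5336791). Casp4 had 2.09 and 2.74 CPM at day 0, 1.82 and 2.68 CPM with vehicle and 2.80 and 3.42 CPM with the drugs. Vehicle and day 0 overlapped, and the lower drug library was just above the higher day 0 library. The log2 difference of 0.49 ± 0.27 between drugs and vehicle ranged from 0.23 to 0.77 when single libraries were left out.

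Gsdmd (chromosome 15, 75862339 to 75867404, plus strand) encodes gasdermin D, the protein that forms the pyroptotic pore. Its libraries had 27.64 and 28.17 CPM at day 0, 27.83 and 31.86 CPM with vehicle and 40.69 and 41.63 CPM with the drugs. Vehicle and day 0 overlapped and the drug libraries were above both, by 0.47 ± 0.0907 on the log2 scale from vehicle (1.38-fold) and 0.56 ± 0.0899 from day 0.

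The cytokine transcripts were scarce in every group. Il1b (chromosome 2, 129364580 to 129371120, minus strand) is the gene of the interleukin-1 beta precursor. It had 2 and 2 counts at day 0, 1 and 1 counts with vehicle and 4 and 5 counts with the drugs. In the last group that is 0.320 and 0.323 CPM, a closeness that so few counts do not make precise. The ratio of drug to vehicle counts was 3.96 with an exact 95% binomial interval of 0.819 to 37.6, a wide range that follows from the 2 counts of the vehicle group. GENCODE M21 places Il1bos antisense over 115 of its exon bases. Il18 (chromosome 9, 50565368 to 50581837, plus strand), the gene of the interleukin-18 precursor, had 2 and 1 counts at day 0, 1 and 3 counts with vehicle and 12 and 13 counts with the drugs. Its drug-to-vehicle ratio was 5.497 (1.90 to 21.7) and its drug-to-day-0 ratio was 8.56 (2.61 to 44.3). Without vehicle replicate 1 or 2 the fitted log2 difference between drugs and vehicle was 1.79 or 3.35 in place of 2.40. The RefSeq start of Il18 lies 10668 bases before the deposited gene model, so that model starts downstream of it. These intervals cover counting error only and describe precision, with no test drawn from them.

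Il1rn, the gene of the interleukin-1 receptor antagonist, which blocks the receptor without signalling, went the other way. On chromosome 2 from 24336860 to 24351491 (plus strand), it had 12 and 6 counts at day 0, 2 and 3 counts with vehicle and 0 and 1 counts with the drugs. The ratio of counts was 0.0571 (counting interval 0.00137 to 0.361) between drugs and day 0, 0.325 (0.0942 to 0.907) between vehicle and day 0 and 0.176 (0.00372 to 1.57) between drugs and vehicle. Il1b with vehicle, at 2 counts over the group, and Il1rn with the drugs, at 1, were both under the floor of 3 counts per group, so the ratios that use them are imprecise.

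**Figure D2:**
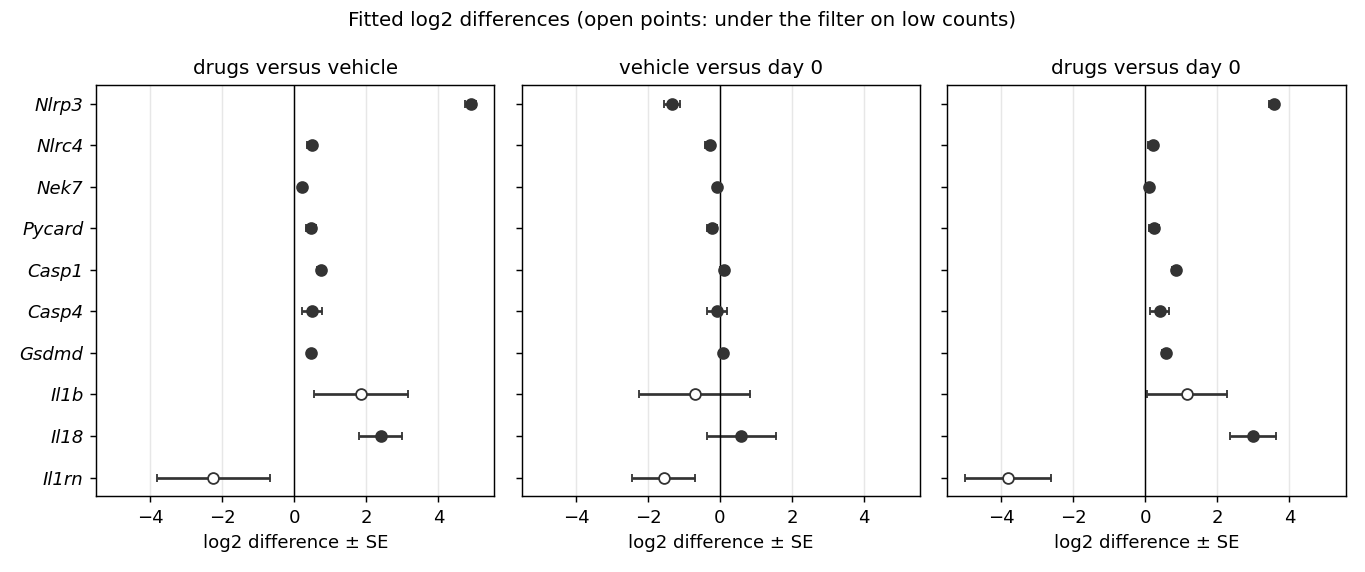
Fitted log2 difference of each of the 10 genes ± SE in each comparison, from 2 libraries per group, with open points for the 2 genes under the filter on low counts. Nlrp3 is farthest to the right in both drug comparisons and left of 0 in vehicle against day 0, and the open points and Il18 rest on so few counts that their fitted values depend on the prior count that edgeR adds.

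Between vehicle and day 0, Casp1 was higher without overlap, and Nlrp3, Nlrc4, Nek7, Il1b and Il1rn were lower, while the other 4 overlapped. Among all tested genes 23.9% were higher and 26.9% lower without overlap in this comparison, and 7.74% were called by the test. These shares hold for 2 libraries against 2. With a library left out, groups overlap less readily by construction, so member counts from such settings are not set beside them. Nlrc4 had a log2 difference of -0.29 ± 0.128 and Nek7 of -0.09 ± 0.0747, and the latter turned to 0.03 when libraries were scaled by their totals, as did that of Casp4. Gsdmd, Pycard and Casp4 differed by 0.10 ± 0.0939, -0.22 ± 0.144 and -0.09 ± 0.284. Pycard came to 0.01 without untreated replicate 1, Casp4 to 0.17 without vehicle replicate 1 and 0.09 without untreated replicate 2, and Il18, at 0.60 ± 0.963, to -0.35 without vehicle replicate 2, so these members have no stable direction in this comparison. Between drugs and day 0, 9 members were higher and 1 lower without overlap, against 37.2% and 36.1% of all tested genes, of which 43.9% were called by the test.

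Levels of different genes were compared only per length, as RPKM, that is CPM divided by the deposited gene length in kilobases. At day 0 the order was led by Nek7 (16.6 RPKM ± 0.144, SD, n = 2) and Gsdmd (15.7 RPKM ± 0.212). Casp1 (9.34 RPKM ± 0.0711) and Pycard (8.26 RPKM ± 1.60) followed and overlapped. Next were Nlrc4 (3.43 RPKM ± 0.107), Casp4 (1.69 RPKM ± 0.32) and Nlrp3 (1.16 RPKM ± 0.109), with Il1rn, Il18 and Il1b at or below 0.226 RPKM and the last pair overlapping. With vehicle, Gsdmd (16.8 RPKM ± 1.60) stood above Nek7 (15.5 RPKM ± 0.104), and Nlrp3 again came just after Casp4, at 0.457 RPKM ± 0.118. With the drugs Nlrp3 stood between Casp1 and Pycard, at 13.6 RPKM ± 0.792, above Pycard (9.92 RPKM ± 0.385) and below Gsdmd (23.2 RPKM ± 0.373), Nek7 (17.8 RPKM ± 0.869) and Casp1 (16.8 RPKM ± 0.52). The sensor transcript was thus below its adaptor without drugs and above it with them. In that group all neighbours in the order were separate in both libraries, though Nek7 and Casp1 only narrowly (lowest Nek7 17.2 RPKM, highest Casp1 17.1 RPKM). Il18 reached 1.04 RPKM ± 0.0998 and Il1b 0.242 RPKM. Il1b and Il1rn had 9 and 1 counts over the drug group, so their order there is imprecise.

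**Figure D3:**
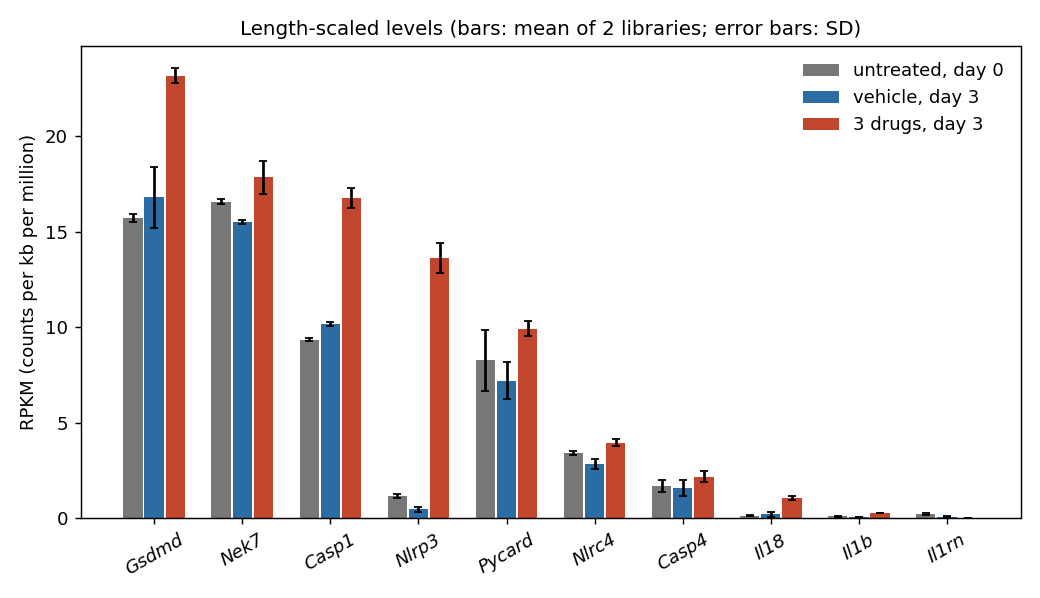
Length-scaled level in RPKM of the 10 genes (bars: mean of 2 libraries, error bars: SD) for untreated, vehicle and drug-treated cultures, ordered by the level with the drugs. Nlrp3 stands at 0.457 RPKM with vehicle, below Pycard, and at 13.6 RPKM with the drugs, above it, whereas the cytokine genes Il18 and Il1b and the antagonist Il1rn stay at or below 1.04 RPKM.

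The profile of Nlrp3 was set beside those of 8719 other tested genes that reached 10 CPM in at least 1 group, by the Euclidean distance between 6 log2 CPM values centred on each gene. The 5 nearest were Bmx, a TEC family tyrosine kinase (distance 1.04), Mgam, a maltase-glucoamylase (1.06), Disp2, a Dispatched family membrane protein (1.24), Rpgrip1, a ciliary protein (1.36), and Procr, the endothelial protein C receptor (1.42). Bmx had 0.47 and 0.92 CPM with vehicle and 15.2 and 17.4 CPM with the drugs. Mgam went from 12.96 and 14.97 CPM to 254.2 and 203.6 CPM. Procr went from 1.03 and 1.84 CPM to 16.3 and 16.2 CPM. Between vehicle and day 0 these 5 genes had log2 differences of -0.27 to -0.50, smaller in size than the -1.34 of Nlrp3. No gene came within a distance of 1, and the 6 points of a gene share libraries and depth with those of every other gene. The likeness is a description.

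**Figure D4:**
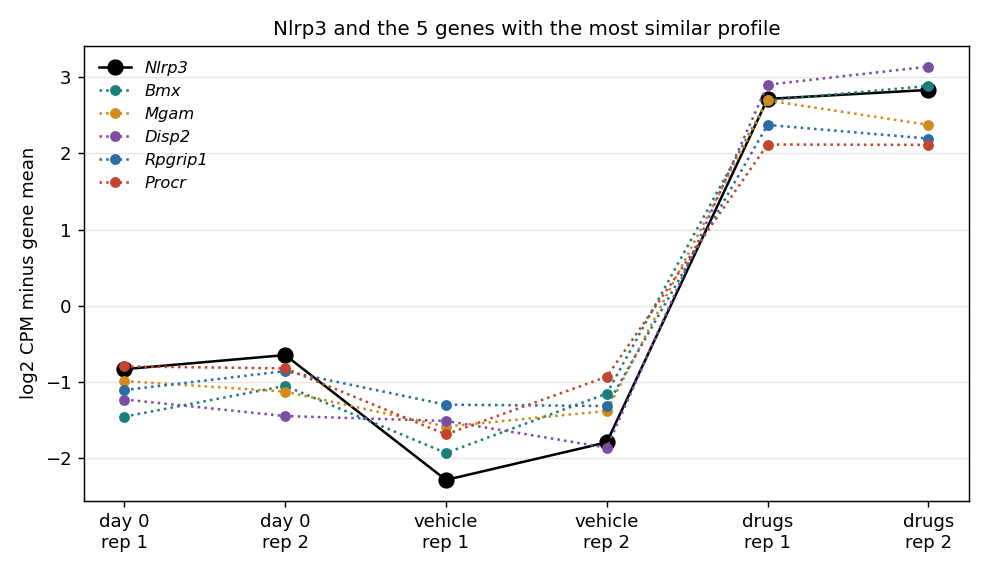
Log2 CPM of Nlrp3 (black) and its 5 nearest genes in each of the 6 libraries after subtracting each gene's mean, with lines drawn only to join the points of a gene. All 6 genes are above 2 in both drug libraries and below -0.6 in the other 4, and Nlrp3 is lowest in vehicle replicate 1 at -2.28.

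Other genes of the pathway, none of them a member, were taken from 7 lists and tested with the edgeR quasi-likelihood F test, adjusted by Benjamini-Hochberg over all 11283 genes, and are called higher or lower where the adjusted p was under 0.05. Of 117 listed genes, 113 were in the table and 90 passed the filter. The lists, like the members, were chosen with earlier results of these data known. Their shares are therefore set beside those of all tested genes as a description only, in every comparison. Between drugs and vehicle, 36 of the 90 were higher and 9 lower, 40% and 10%, against 18.1% and 13.8% of all tested genes, and their median log2 difference was 0.22 against 0.001. The counts were 20 and 4 without drug replicate 1, 23 and 4 without drug replicate 2, and 22 and 7 with DESeq2. Nod2, Mefv, Il33 and Ly96 passed the filter only through the drug libraries, and without these 4 the counts were 33 and 9 of 86.

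Other sensors mostly rose with the drugs. Of 14 tested sensor genes, 9 rose and 1 fell (median log2 difference 0.72). These shares, 64.3% and 7.14%, stood beside 18.1% and 13.8% of all tested genes. The 14 and their median include Nod2 and Mefv, which passed the filter only through the drug libraries. Nlrp10, an NLR protein without leucine-rich repeats, went from 1.98 and 1.42 CPM with vehicle to 11.4 and 9.62 CPM, a log2 difference of 2.61 ± 0.232 (adjusted p = 2.49e-06). Nlrp10 was lower with vehicle than at day 0 by 1.45 ± 0.264 on the log2 scale (adjusted p = 0.00566). Without untreated replicate 1 that log2 difference was -1.19. Between drugs and day 0 the log2 difference of Nlrp10 was 1.16 ± 0.184 (adjusted p = 0.000289). Nod2, a sensor of bacterial muramyl dipeptide, is among the 9 but passed the filter only through the drug libraries, with 3 and 3 counts with vehicle and 12 and 14 counts with the drugs, and its call is not used. The fall was Nlrc5, the transactivator of MHC class I genes, by 0.63 ± 0.0669 (adjusted p = 1.28e-05). Against day 0 the drug-treated cells were called higher in 9 of the 14 sensors and lower in 1, or higher in 5 with DESeq2. These 9 and 1 are 64.3% and 7.14%, against 22.7% and 21.2% of all tested genes. The 2 NAIP receptors that stand upstream of Nlrc4 and were named for this comparison, Naip5 and Naip2, rose by 1.05 ± 0.0876 (adjusted p = 1.15e-06) and 0.77 ± 0.0677 (adjusted p = 1.74e-06). NAIP genes are related copies, and how reads matching more than 1 gene were counted is not known. The split of reads between them may therefore be uncertain, which was not examined. Nlrp12, an NLR that restrains NF-kB, rose from day 0 by 1.404 ± 0.44 (adjusted p = 0.0207), but was not called with DESeq2 (0.169), without untreated replicate 1 (0.0795) or 2 (0.0652) and without drug replicate 2 (0.257).

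Genes that regulate or trigger NLRP3 were divided. Of 21 tested, 7 rose and 3 fell between drugs and vehicle (median 0.04), 33.3% and 14.3% against 18.1% and 13.8% of all tested genes. The rises became 4 with DESeq2, without either drug library or without vehicle replicate 1, and the falls 1 in the same settings. Of the 3 falls, Syk, a kinase upstream of ASC, fell by 0.53 ± 0.0867 (adjusted p = 0.000485) and was called in all 13 alternatives. The falls of Mark4 (0.44 ± 0.137, adjusted p = 0.0273) and of Btk, a kinase that phosphorylates NLRP3 (0.20 ± 0.0687, adjusted p = 0.0396), missed the threshold in 5 and 6 of the 13 alternatives, with adjusted p up to 0.304 and 0.261. P2rx7, the ATP-gated channel whose opening lets potassium out and triggers NLRP3, went from 0.87 and 0.25 CPM with vehicle to 83.1 and 78.0 CPM with the drugs, a log2 difference of 7.12 ± 0.21 (adjusted p = 6.89e-11). At day 0 its libraries had 0.90 and 0.50 CPM, so both the sensor and this channel were low in all 4 libraries without drugs. Hdac6, a deacetylase that carries NLRP3 along microtubules, rose by 0.70 ± 0.113 (adjusted p = 0.000476). Between vehicle and day 0, Txnip, a thioredoxin inhibitor, fell by 0.70 ± 0.104 (adjusted p = 0.00166). Kcnk6, a potassium channel, rose by 0.71 ± 0.176 from day 0 to vehicle (adjusted p = 0.0284), but missed the threshold with DESeq2 (0.176), with only those 2 groups fitted (0.0565), without untreated replicate 1 (0.148), vehicle replicate 1 (0.207), drug replicate 1 (0.0578) or drug replicate 2 (0.0601). Its rise from day 0 to the drugs was 1.16 ± 0.164 (adjusted p = 0.000114).

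Among 12 tested caspase, gasdermin and pyroptosis genes, 3 rose and 2 fell between drugs and vehicle (median 0.005), or 1 and 1 without either drug library, 1 rise with library totals and 1 fall without vehicle replicate 2. The 3 and 2 of 12 are 25% and 16.7%, near the 18.1% and 13.8% of all tested genes. Ninj1, which ruptures the plasma membrane at the end of pyroptosis, fell by 0.72 ± 0.0871 (adjusted p = 4.11e-05), opposite in direction to Gsdmd. Casp8, a caspase of death receptors, rose by 0.34 ± 0.0682 (adjusted p = 0.00217). The other rises, Casp9 and Serpinb1a, and the other fall, Hmgb1, a nuclear protein released by dying cells, had log2 differences of 0.34 ± 0.103, 0.32 ± 0.0882 and -0.29 ± 0.0809, and missed the threshold in 5, 4 and 3 of 13 alternatives (adjusted p up to 0.169, 0.128 and 0.209). Between drugs and day 0, Hmgb1 fell by 0.38 ± 0.0808 (adjusted p = 0.0024, or 0.0697 without drug replicate 1). Gsdma, Gsdma2, Gsdma3 and Casp12 had 0 counts in all 6 libraries.

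**Figure D5:**
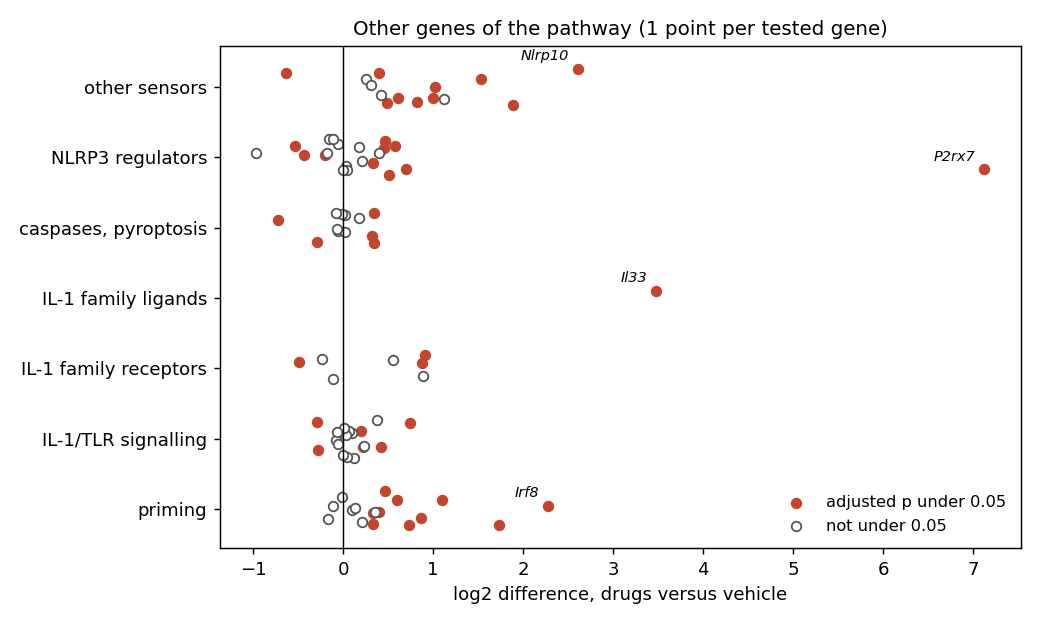
Log2 difference between drugs and vehicle for each of the 90 tested genes of the 7 other pathway lists, filled where the adjusted p was under 0.05 (vertical position within a list is arbitrary). P2rx7 at 7.12, Il33 at 3.48, Nlrp10 at 2.61 and Irf8 at 2.28 lie farthest to the right (Il33 passed the filter only through the drug libraries), and Ninj1 at -0.72 is the lowest called gene.

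Ligands of the interleukin-1 family were sparse. Its receptor genes differed widely in level, with vehicle means of 42.8 RPKM for Sigirr, 13.7 RPKM for Il18rap, 2.37 RPKM for Il1rap and 0.169 RPKM for Il1rl1. Of 7 listed ligands 3 were in the table, and Il1a and Il1f10 had 0 counts in all 6 libraries. Il33, an alarmin cytokine, had 2 and 2 counts at day 0, 1 and 1 counts with vehicle and 11 and 17 counts with the drugs, a drug-to-vehicle ratio of 12.3 (95% counting interval 3.11 to 106.7). Il33 passed the filter only through the drug libraries, and its call is not used. Of 7 tested receptor genes, 2 rose and 1 fell between drugs and vehicle (median 0.55), 28.6% and 14.3% against 18.1% and 13.8% of all tested genes. The rises became 0 with DESeq2, without vehicle replicate 2 or without drug replicate 2, and 1 with library totals, without vehicle replicate 1 or without drug replicate 1, and the fall became 2 without vehicle replicate 2. The rises were Il18bp, the decoy that binds interleukin-18 (0.88 ± 0.214, adjusted p = 0.00761), and Il1rl1, the receptor of interleukin-33 (0.91 ± 0.303, adjusted p = 0.0362). The call of Il18bp was lost with DESeq2 (0.0671), without vehicle replicate 2 (0.0825) or without drug replicate 2 (0.102). That of Il1rl1 was lost with DESeq2 (0.201), with library totals (0.0519) and without vehicle replicate 1 (0.0998) or 2 (0.165) or drug replicate 1 (0.236) or 2 (0.0553). Sigirr, which dampens signalling of the family, fell by 0.49 ± 0.0713 (adjusted p = 0.000182). Between drugs and day 0, 1 of the 7 was higher and 3 lower (median -0.71), against 22.7% and 21.2% of all tested genes. Il1rl1 was among the lower ones, by 0.81 ± 0.229 (adjusted p = 0.0127, or 0.165 with DESeq2), so with the drugs it was above vehicle but below day 0.

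In vehicle culture 4 of the 7 receptors fell from day 0 and none rose, against 3.99% and 3.75% of all tested genes called lower and higher in that comparison. The falls became 2 with DESeq2, without untreated replicate 1 or without vehicle replicate 1. Il18rap, a subunit of the interleukin-18 receptor, fell by 0.77 ± 0.0984 (adjusted p = 0.000625), from 58.3 to 34.1 CPM on average. Il1rl1 fell by 1.72 ± 0.271 (adjusted p = 0.00226). Il18r1, the other subunit of the interleukin-18 receptor, fell by 1.60 ± 0.405 (adjusted p = 0.0314), but missed the threshold with DESeq2 (0.179), without untreated replicate 1 (0.201) and without vehicle replicate 1 (0.267). Il1r1, the signalling receptor of interleukin-1, fell by 1.27 ± 0.324 (adjusted p = 0.032), which was lost in 5 of 13 alternatives, among them each fit without untreated replicate 1 (0.355), vehicle replicate 1 (0.0726) or vehicle replicate 2 (0.112). Over all 90 pathway genes, 3 were higher and 7 lower with vehicle than at day 0, or 6 and 6 with library totals. The 7 became 4 without untreated replicate 1 and 13 without untreated replicate 2.

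Downstream signalling genes shared with Toll-like receptors were called at about the rate of all genes, 33.3% against 31.9%. Of 18 tested, 4 rose and 2 fell between drugs and vehicle (median 0.05), or 2 and 0 without either drug library, and 2 rose with DESeq2, without the filter or without either vehicle library. Map3k3, a kinase between the receptor complex and NF-kB, rose by 0.75 ± 0.0766 (adjusted p = 9.53e-06), and Irak3, the inhibitory IRAK kinase, by 0.42 ± 0.0826 (adjusted p = 0.00185). The other rises, Tab2 (0.20 ± 0.0708, adjusted p = 0.0434) and Ikbkg (0.225 ± 0.0744, adjusted p = 0.035), each missed the threshold in 8 of 13 alternatives. The falls were Ube2n, a ubiquitin-conjugating enzyme (0.29 ± 0.0674, adjusted p = 0.00605) and its partner Ube2v1 (0.275 ± 0.0669, adjusted p = 0.00741), both missing it without drug replicate 1 (0.0798 and 0.0887) or 2 (0.0645 and 0.0731). Myd88, the adaptor itself, had a log2 difference of -0.08 ± 0.129. Between drugs and day 0, Ube2n fell by 0.31 ± 0.0669 (adjusted p = 0.00232).

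Genes of the priming signal followed. Of 17 tested genes of Toll-like receptors, NF-kB and transcription factors known at these loci, 10 rose and none fell between drugs and vehicle (median 0.36), or 5 rose without drug replicate 1 and 6 with DESeq2. The 10 of 17 are 58.8%, against 18.1% of all tested genes called higher and 13.8% called lower. Irf8, a transcription factor of the monocyte lineage, went from 6.25 and 6.35 CPM to 28.3 and 32.7 CPM (log2 difference 2.28 ± 0.141, adjusted p = 7.75e-08). Nfkbiz, a nuclear NF-kB cofactor, was higher with the drugs than with vehicle by 1.10 ± 0.111 (adjusted p = 7.98e-06). It was lower with vehicle than at day 0 by 0.79 ± 0.113 (adjusted p = 0.00131). Between drugs and day 0 its log2 difference was only 0.31 ± 0.102 (adjusted p = 0.0252). Ly96, which encodes the lipopolysaccharide co-receptor MD-2, is among the 10 and enters the median, but passed the filter only through the drug libraries. It had 8 and 8 counts with vehicle and 26 and 35 counts with the drugs, and its call is not used. Tlr4, the receptor that MD-2 serves, rose from day 0 to vehicle by 0.37 ± 0.0693 (adjusted p = 0.00595) and from day 0 to the drugs by 0.84 ± 0.0677 (adjusted p = 8.07e-07). Between drugs and day 0, 11 of the 17, Ly96 among them, were higher and 2 lower, or 5 and 1 with DESeq2. The 11 and 2 are 64.7% and 11.8%, against 22.7% and 21.2% of all tested genes. The lower ones were Cebpb (-0.60 ± 0.147, adjusted p = 0.00542) and Ticam2 (-0.33 ± 0.0895, adjusted p = 0.00988). Both missed the threshold with library totals (0.0501 and 0.104).

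Between drugs and day 0, 33 of the 90 pathway genes were higher and 15 lower, 36.7% and 16.7%, against 22.7% and 21.2% of all tested genes. The counts were 31 and 15 without the 4 genes that passed only through the drug libraries and 21 and 11 with DESeq2, and the 15 became 8 without drug replicate 1 and 10 without drug replicate 2. The drug libraries enter both drug comparisons and the vehicle libraries 2 of the 3, so no agreement between comparisons is drawn from them. Il18rap was lower with the drugs than at day 0 by 1.01 ± 0.099 on the log2 scale (adjusted p = 4.71e-06), while its log2 difference between drugs and vehicle was -0.24 ± 0.105, not called.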

How the data were processed

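Polyadenylated RNA of 6 cultures was sequenced. The deposited table holds the authors' counts of reads per gene, not normalised, and a gene length column in base pairs (another unit, used only for RPKM). STAR 2.7.0f, deepTools 3.0.2 and the mm10 build are named in the submitters' processing notes, while strand setting, handling of multiply matching reads and annotation release were not found in any source. Of 23337 genes, 8069 had 0 counts throughout, and filterByExpr left 11283. All 3 groups were fitted together in edgeR 4.0.16 (R 4.3.3, TMM scaling, quasi-likelihood F test, 3 residual degrees of freedom), with SE derived from the F statistic and Benjamini-Hochberg adjustment over all tested genes. Log2 differences of the 2 members under the filter come from an unfiltered fit. The test was checked on simulated counts. The 13 alternatives were DESeq2 1.42.0, RLE size factors, library totals, no filter, only the groups compared, Rn45s left out, a replicate block and each library left out, and counts without genes that passed the filter only through 1 group were added after the data were seen. Replicates of 1 group differed beyond counting error (chi-square per degree of freedom 1.85 to 14.1). The members and lists were chosen with earlier results of these data known. Named were all members, the 5 nearest genes to Nlrp3, and per list and comparison up to 4 called genes (the 2 smallest p and the 2 largest changes), with others chosen after their values were seen (Myd88, genes at 0, and called genes completing a count of 5 or fewer). List genes under older symbols (Dfna5 for Gsdme, Sfpi1 for Spi1, Emr1 for Adgre1) were matched through RefSeq synonyms, and 4 listed ligands were not matched.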

Additional observations from a re-analysis of the deposited data

How the results depend on the processing

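Of 311 member log2 differences recomputed under the alternatives, 300 moved by less than the spread between replicates, 10 moved by more and 1, of a member whose groups did not overlap, changed sign: Nek7 in vehicle versus day 0, 0.028 with library totals against -0.09. In the same comparison Pycard, Casp4 and Il18, whose groups overlap, also changed sign in single settings, reaching 0.012, 0.172 and -0.352. The log2 difference of Nlrp3 between drugs and vehicle ranged from 4.65 to 5.17 when single libraries were left out and from 4.87 to 4.90 under the other settings. Scaling by library totals shifted the median of all genes between vehicle and day 0 to 0.104, and 88.96% rather than 48.45% of called genes were then higher (70.39% rather than 51.71% for drugs versus day 0). With it, 2 members were higher and 3 lower without overlap between vehicle and day 0, and 6 pathway genes were called higher. DESeq2 called 22 pathway genes higher in drugs versus vehicle and 21 in drugs versus day 0. When each library was left out in turn, pathway genes called higher and lower numbered 20 to 37 and 4 to 9 (drugs versus vehicle), 2 to 4 and 4 to 13 (vehicle versus day 0) and 23 to 36 and 8 to 18 (drugs versus day 0), and members without overlap 1 to 3 higher and 5 to 8 lower in vehicle versus day 0. A fit with a group of 1 library assumes that it varies like the others. Such a group also overlaps less readily with another, so the larger member counts without overlap follow from the rule and are not a result.

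Replicate numbers are shared by the groups, but the labels do not say that they pair the cultures, and deviations of the same number correlated at 0.0807 (drugs and vehicle), -0.199 (vehicle and day 0) and -0.0604 (drugs and day 0). With a replicate block, 33 pathway genes were higher and 7 lower in drugs versus vehicle, 2 and 6 in vehicle versus day 0, and 32 and 15 in drugs versus day 0. With it Kcnk6 and Il18r1 (vehicle versus day 0), Mark4, Btk, Tab2 and Ikbkg (drugs versus vehicle) had adjusted p of 0.0619, 0.0687, 0.0561, 0.0706, 0.0911 and 0.0685. Of 858 recomputed values of named pathway genes over the 13 alternatives, 743 kept their call, 115 lost it and 0 reversed. Depth limits Il1b, Il18, Il1rn and Il33.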
